A study of Mus musculus with 2 samples.

Results

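The sites described here are CTCF peaks in the introns of very long genes: 6174 of the 73465 peaks in the list that survived the reproducibility filter, or 8.40% of it. A peak was taken when its summit lay on chromosomes 1 to 19, in a protein-coding gene annotated as longer than 200 kb, outside every exon, more than 1 kb from every transcription start site (TSS) and on a base that is not soft-masked, the lower-case marking of repeats in the mm10 assembly. None of these criteria used the height of a peak or its sequence beyond the masking. Of the 71756 peaks on chromosomes 1 to 19, 9347 lay in such a gene, 8539 of them outside exons, 7843 of those clear of start sites, and 6174 of those on unmasked sequence. At the length limit, Pcbp3, Plcxd3 and Umad1, the genes just above it at 200.03, 200.1 and 200.2 kb, held 4, 0 and 2 members, and Atp9b, Morc1 and Clec16a, just below it at 199.9, 199.7 and 199.5 kb, held 2, 2 and 9 peaks that met every other criterion.

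The data are CTCF ChIP-seq of whole intestine from newborn mice (postnatal day 0) of strain B6NCrl, with 2 biological replicates and no second condition. Each replicate was pulverized intestine pooled from several dissections, the sex of the animals was not recorded, and no treatment or engineered allele is named. All cell types of the gut wall contributed, and the files hold no expression values against which the tissue label could be checked. A peak's signal is the authors' own value for it and is used here only within 1 list. Sequencing depth is unknown from the peak lists.

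CTCF recognises a long, directional DNA motif through an array of zinc fingers. It halts loop extrusion by the cohesin ring, and loops tend to form between sites whose motifs point toward each other. Genes of this length are made almost wholly of introns. Many encode synaptic, adhesion and signalling proteins, their transcription takes hours, and several are known as common fragile sites.

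What a binding site inside such a gene looks like is shown by the bases within 50 of the summit for some of the strongest members, for the strongest member of 3 genes rich in them, and for 2 members close to the median signal. Each is read 5′ to 3′ on the strand that carries the motif, from the mm10 assembly, and the capitals mark the 19 bases of the best match to the CTCF matrix, which was learned from the peaks of other chromosomes.
Pcbp3, chr10:76835836-76835936, plus strand: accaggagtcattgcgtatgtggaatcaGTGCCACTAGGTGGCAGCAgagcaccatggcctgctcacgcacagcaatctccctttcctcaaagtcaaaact
Ksr2, chr5:117505333-117505433, plus strand: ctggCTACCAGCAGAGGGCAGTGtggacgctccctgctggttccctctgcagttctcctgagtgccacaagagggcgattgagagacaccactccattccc
Farp1, chr14:121279240-121279340, plus strand: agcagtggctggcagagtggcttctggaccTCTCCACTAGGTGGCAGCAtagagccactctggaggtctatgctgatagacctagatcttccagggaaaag
Dis3l2, chr1:87042213-87042313, minus strand: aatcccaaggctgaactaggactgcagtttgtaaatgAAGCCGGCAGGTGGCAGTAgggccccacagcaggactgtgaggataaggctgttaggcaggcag
Stx8, chr11:68004317-68004417, plus strand: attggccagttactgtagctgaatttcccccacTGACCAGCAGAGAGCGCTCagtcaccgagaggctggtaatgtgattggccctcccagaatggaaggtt
Fgfr2, chr7:130476100-130476200, minus strand: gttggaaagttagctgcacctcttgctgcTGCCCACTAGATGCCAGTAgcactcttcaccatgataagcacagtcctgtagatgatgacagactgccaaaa
Nav2, chr7:49272629-49272729, minus strand: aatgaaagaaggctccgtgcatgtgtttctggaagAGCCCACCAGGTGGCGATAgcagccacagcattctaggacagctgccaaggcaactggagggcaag
Pde4d, chr13:109776249-109776349, plus strand: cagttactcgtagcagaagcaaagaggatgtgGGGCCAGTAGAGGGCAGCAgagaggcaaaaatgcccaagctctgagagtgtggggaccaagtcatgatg
Prkag2, chr5:24975244-24975344, minus strand: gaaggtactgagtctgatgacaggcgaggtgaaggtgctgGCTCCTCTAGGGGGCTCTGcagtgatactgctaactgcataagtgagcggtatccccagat
Tmem132b, chr5:125709299-125709399, plus strand: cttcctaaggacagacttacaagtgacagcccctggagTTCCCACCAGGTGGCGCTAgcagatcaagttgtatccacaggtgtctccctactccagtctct

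The first 5 of these carried signals of 674.5 (Pcbp3), 585.9 (Ksr2), 585.3 (Farp1), 564.5 (Dis3l2) and 556.8 (Stx8). The strongest members of Fgfr2, Nav2 and Pde4d reached 515.9, 484.9 and 457.1. The annotated span of Fgfr2 is 2961 kb and covers 29 other coding genes, and its printed site lies 2647 kb from the annotated start. Prkag2 and Tmem132b, at 78.0 each, stand for the middle of the set. On the scale of the matrix, a log2 ratio of the motif to base composition summed over 19 bases, Tmem132b scored 21 and Pcbp3 20.2, while Stx8 scored 15.7 and Prkag2 11.3. The call required a score of 9.22 or 9.26, depending on the chromosome. The matched sequences were varied: 4412 motif-bearing members held 4350 distinct 19-base sequences. The commonest 13-base core, CCAGAAGAGGGCA, was present in 59 of them (1.34%), followed by CCACTAGATGGCA in 51 and CCAGCAGAGGGCA in 43.

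A CTCF motif whose centre lay within 100 bases of the summit was called in 71.5% of members (95% Wilson interval 70.3 to 72.6, 4412 of 6174), against 72.2% of all listed peaks of chromosomes 1 to 19 and 3.99% of windows 1 kb to either side of the members. In the introns of genes under 50 kb, chosen by the same criteria and called short-gene introns below, 73.0% of 4786 peaks had a motif. The difference of 1.54 percentage points did not pass its test (member share minus short-gene share -1.54 points, 95% Newcombe interval -3.23 to 0.149). It did pass in 8 of the alternatives run, among them the conservative list (-2.33 points, -4.01 to -0.634) and the lists from replicate 2 alone (-2.65 points, -4.32 to -0.971) and replicate 1 alone (-1.74 points, -3.42 to -0.0517). Intergenic peaks, outside every annotated gene and more than 1 kb from a TSS, had a motif in 77.4% of 17833, and members fell short of them (difference -5.95 points, interval -7.24 to -4.68). Windows 1 kb to either side reached the call in 6.52% for short-gene peaks and 4.83% for intergenic ones, both above the members' 3.99%. None of these differences in motif share is corrected for that background, and its part in them was not tested.

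The members' motifs held fewer CpG dinucleotides, the pair of bases at which DNA is methylated, than those of short-gene introns and intergenic peaks. A CpG lay in 30.4% of the members' 4412 motifs (interval 29.0 to 31.7), in 36.0% of the 3494 motifs of short-gene introns and in 37.3% of the 13805 intergenic ones. The difference was -5.66 points against short-gene introns (interval -7.75 to -3.57) and -6.92 points against intergenic peaks (interval -8.48 to -5.33). Against introns of genes of 50 to 200 kb, where 31.8% of motifs held a CpG, it did not pass (-1.44 points, interval -3.25 to 0.386). The 201 bases around the summit were also poorer in G and C, with a mean of 48.1% ± 6.30 (SD over 6174 members) against 50.4% ± 6.63 in short-gene introns. The part of base composition in the CpG difference was not tested.

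CTCF sites were sparse in these introns. The members lay in 273.7 Mb of sequence open to the same criteria, which is 22.6 per Mb (95% Poisson interval 22.0 to 23.1). Introns of genes between 50 and 200 kb held 38.2 per Mb and short-gene introns 47.7 per Mb. The density in very long genes was 0.473 times that of short-gene introns (exact 95% interval 0.455 to 0.491). The ratio was below 1 on 19 of 19 chromosomes, from 0.298 to 0.749. Members lay farther from a TSS, at a median of 19.4 kb against 4.26 kb for short-gene peaks. Between 1 and 10 kb from a TSS the ratio was 0.641 (interval 0.606 to 0.677). Between 10 and 50 kb it was 0.539 (0.501 to 0.581). Neighbouring peaks and peaks of 1 gene are not independent, so these intervals cover counting error only.

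Against intergenic sequence the order depended on how far a base lay from a TSS. Between 1 and 10 kb from a start site the very long genes held 31.2 sites per Mb and intergenic sequence 38.8 (ratio 0.803, interval 0.764 to 0.845). Between 50 and 200 kb the order was the other way round, 15.4 per Mb in the genes and 11 outside them (ratio 1.40, interval 1.30 to 1.5). Beyond 200 kb, where 71 members lay, the values were 9.29 and 4.96 per Mb (ratio 1.87, interval 1.38 to 2.53). Both orders, within 10 kb and between 50 and 200 kb, held in lists built from either replicate alone. Over all distances the ratio was 0.924 (interval 0.898 to 0.951). It turned to 1.06 with soft-masked bases kept, to 1.09 for genes over 100 kb and to 1.03 more than 10 kb from a TSS. An excess over intergenic sequence far from a TSS was not particular to very long genes. Introns of genes of 50 to 200 kb held 27.2 per Mb (304 peaks) between 50 and 200 kb from a TSS. Between 1 and 10 kb they held 41.8 per Mb, so they were above intergenic sequence at both distances.

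Base composition of the surroundings moved with density in every class. When the genome was divided into 50-kb bins by GC content, members went from 7.89 per Mb in bins under 39% GC to 17.5, 28.2 and 39.7 per Mb in the next classes and 60.3 per Mb at 48% and over. Very long genes sit mainly in GC-poor sequence: 27.5% of their eligible bases lay in bins under 39% GC and 5.43% in bins of 48% or more, against 6.41% and 26.8% for short-gene introns. Intergenic sequence was GC-poor too, with 33.7% and 6.05% in these bins. Within a GC class the density of the very long genes was 0.715 to 0.778 times that of short-gene introns, with each of the 5 intervals below 1. These ratios are nearer to 1 than the ratio of 0.473 over all bins. The comparison with intergenic sequence changed direction along the scale. The ratio was 1.46 (interval 1.33 to 1.61) under 39% GC and 1.11 (1.04 to 1.18) at 39 to 42%. It was 0.867 (0.821 to 0.914), 0.742 (0.698 to 0.788) and 0.715 (0.664 to 0.769) in the 3 classes above. This change was not particular to very long genes. Under 39% GC introns of genes of 50 to 200 kb held 16.4 per Mb and short-gene introns 11.04, against 5.39 in intergenic sequence. At 48% and over these introns held 70.2 and 77.5 per Mb, against 84.4 in intergenic sequence.

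**Figure D1:**
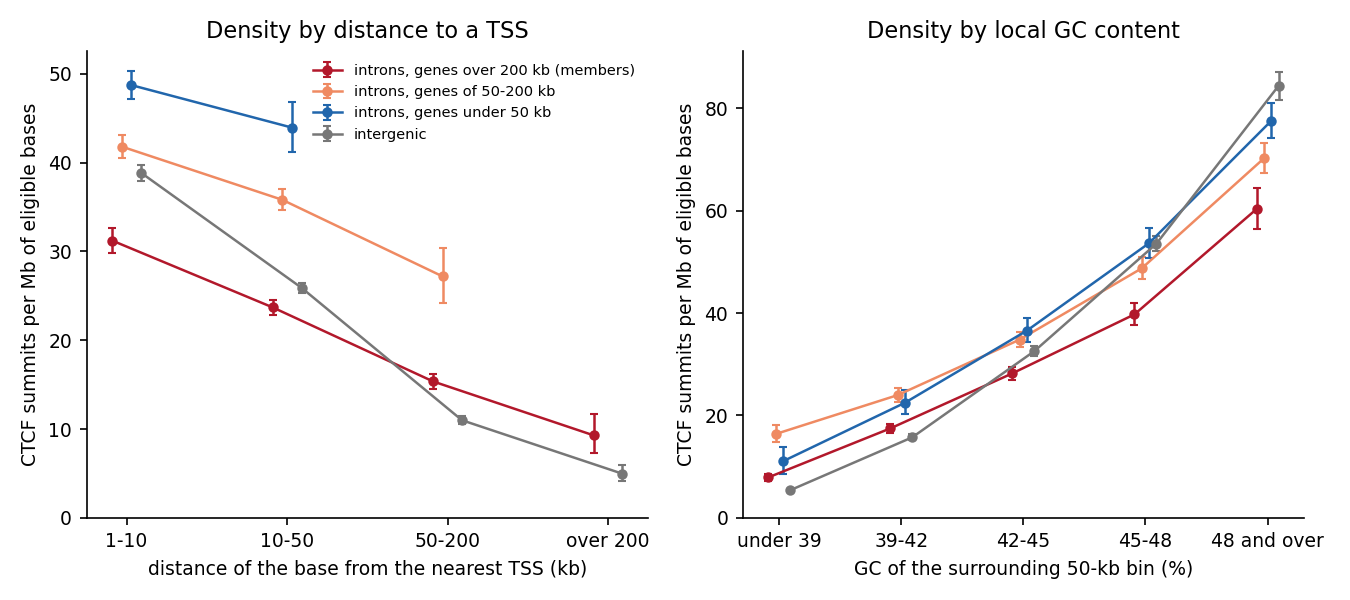
CTCF summits per Mb of eligible bases (vertical axes) by distance to the nearest TSS in kb (left) and by the GC content of the surrounding 50-kb bin in percent (right), for members in red and 3 other classes of position; points are densities and bars 95% Poisson intervals. The red line starts below the grey intergenic line at 1 to 10 kb (31.2 against 38.8 per Mb) and lies above it from 50 kb on (15.4 against 11), and all 4 classes climb with GC.

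The members were weaker than peaks in short genes. Their median signal was 78.0, with quartiles of 35.2 and 218.1, against 107.8 in short-gene introns, 84.1 in introns of genes of 50 to 200 kb and 124.7 in intergenic sequence. Among members 50.7% exceeded the median of the list, as 50% of all its peaks on chromosomes 1 to 19 did, against 57.4% of short-gene peaks (difference -6.68 points, Newcombe interval -8.55 to -4.80). Against introns of genes of 50 to 200 kb the difference was -1.90 points (interval -3.55 to -0.240). The difference from short-gene peaks had this sign on 18 of 19 chromosomes. The shortfall extended to the strongest peaks: 8.58% of members lay in the tenth of the list with the highest signal, where 10.2% of all listed peaks and 14.8% of short-gene peaks lay (difference from short-gene peaks -6.23 points, interval -7.46 to -5.01).

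Strong members nearly always had a motif and weak ones often did not, much as in the whole list. From the weakest to the strongest of 5 equal classes of signal the motif share of members was 48.7%, 58.8%, 67.9%, 86.7% and 93.9%. Over all listed peaks of chromosomes 1 to 19 it was 50.2%, 62.3%, 71.5%, 83.4% and 93.8%. In the 2 weakest classes members had a motif more often than short-gene peaks of like signal. The differences were 6.09 points (interval 1.68 to 10.4) and 7.12 points (interval 2.68 to 11.5). Short-gene peaks were low there, with a motif in 42.7% and 51.7%, against 48.3% and 62.8% of intergenic peaks. The members' share was below that of all listed peaks in both classes. Against short-gene peaks, the next 2 classes did not pass the test (-3.02 points, -7.03 to 1.07, and -0.0270 points, -2.77 to 2.78). In the strongest class the members' share was lower by a margin whose interval only just left out 0 (-1.74 points, -3.53 to -0.00189).

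**Figure D2:**
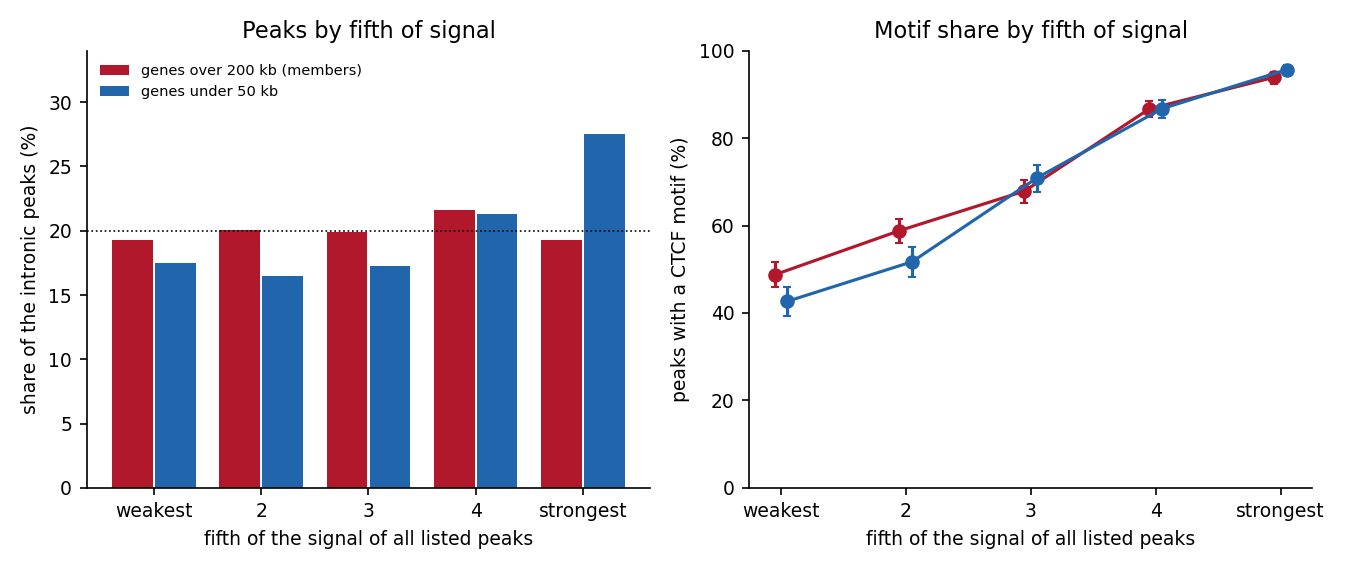
Left, share of the members (red bars) and of short-gene intronic peaks (blue bars) that fall in each of 5 equal classes of the signal of all listed peaks, in percent, with 20% dotted; right, percent of peaks in each class with a CTCF motif, with 95% Wilson intervals. The red bars stay near 20% while the blue ones reach 27.6% in the strongest class, and both motif curves climb, the members' from 48.7% to 93.9%.

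The list was made by keeping peaks that these 2 replicates place alike, so their likeness over the members is a description of that choice. Of 6174 members 99.5% had a summit within 150 bases in the peak list of replicate 1 and 99.5% in that of replicate 2, and over the 6117 found in both lists the Spearman correlation of their ranks was 0.962, across peaks of 1 pair of libraries. Over all listed peaks of chromosomes 1 to 19 the values were much the same, 99% and 99.1% matched and a correlation of 0.957. The conservative list, the stricter of the 2 reproducibility lists, held 88.8% of the members (interval 88.0 to 89.6), against 87.6% of all listed peaks. The 3 weakest members lay in Fgf14, Prkce and Ralgps1, had signals of 5.02, 5.00 and 4.74, carried no motif call, and each was matched in 1 of the 2 replicates.

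Almost every very long gene had at least 1 of these sites. Of 953 protein-coding genes over 200 kb, 909 (95.4%, Wilson interval 93.9 to 96.5) held a member, with a median of 5 per gene and quartiles of 3 and 9, and 202 genes held 10 or more. Density was lower in longer genes: genes of 200 to 300 kb held 31.1 members per Mb of eligible sequence, those of 300 to 500 kb 23.9, those of 500 to 1000 kb 17.8 and those over 1000 kb 16.8. Some annotated gene models enclose many other genes. The predicted gene Gm20388, annotated over 4435 kb on chromosome 8, covers 71 other coding genes whole, and the annotated span of Fgfr2, a fibroblast growth factor receptor, covers 29 over 2961 kb. There were 16 such models that enclose 5 or more coding genes, and 342 members (5.54%) lay in no other long gene; 151 of these were inside an enclosed coding gene of 200 kb or less. Without these models the genes over 1000 kb held 11.3 members per Mb.

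GC content ordered the genes too. With the genes in 5 equal classes of GC, the density in the poorest was 8.26 members per Mb (interval 7.58 to 9.0), and in the richest 44.2 (42.4 to 46.1). The Spearman correlation between a gene's GC and its density was 0.685 over 953 genes, given as a description because each gene's density and GC come from the same stretch of sequence. The GC-poor genes had few members with frequent motifs, 79.7% against 68.1% in the GC-rich genes, and a higher median signal, 89.7 against 75.

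Apart from the spanning models, the genes with most members encode regulators of the cytoskeleton, of cyclic AMP, of synapses and of transcription. Nav2, a microtubule-associated protein of the neuron navigator family, held 36 members along 701.4 kb, or 70.8 per Mb (interval 49.6 to 98.1). Pde4d, a phosphodiesterase that degrades cyclic AMP, held 34 in 1504 kb, at 32.8 per Mb. Kalrn, a guanine nucleotide exchange factor, held 29, Foxp1, a forkhead transcription factor, and Camta1, a calmodulin-binding transcription activator, held 28 each, and Erc2, a scaffold of the presynaptic active zone, held 26. The intervals of Nav2 and Pde4d, 49.6 to 98.1 and 22.7 to 45.8 per Mb, did not overlap, but they cover counting error only. Both genes were picked for their many members. Their eligible bases were 48.4% GC in Nav2 and 40.7% in Pde4d, and the part of GC in their densities was not tested.

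The strongest members of Nav2 and Pde4d lay far from the annotated start of the gene, but some of those in Nav2 were close to another TSS. The 4 strongest of Nav2 had signals of 484.9, 484.7, 446.3 and 438.8, at 364.0, 341.5, 224.2 and 490.8 kb from the gene's start, the first 3 of them in its second intron of 397.7 kb. For these 3 the nearest annotated TSS of any gene was 25.8, 3.37 and 1.34 kb away. The 4 strongest of Pde4d, at 457.1, 411.5, 410.3 and 400.8, lay between 760.6 and 1326 kb from its start. Foxp1 had no member of that height: its strongest reached 266.8, 137.6 kb from the start, and 12 of its 28 members had a motif, against 27 of 36 in Nav2 and 26 of 34 in Pde4d.

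**Figure D3:**
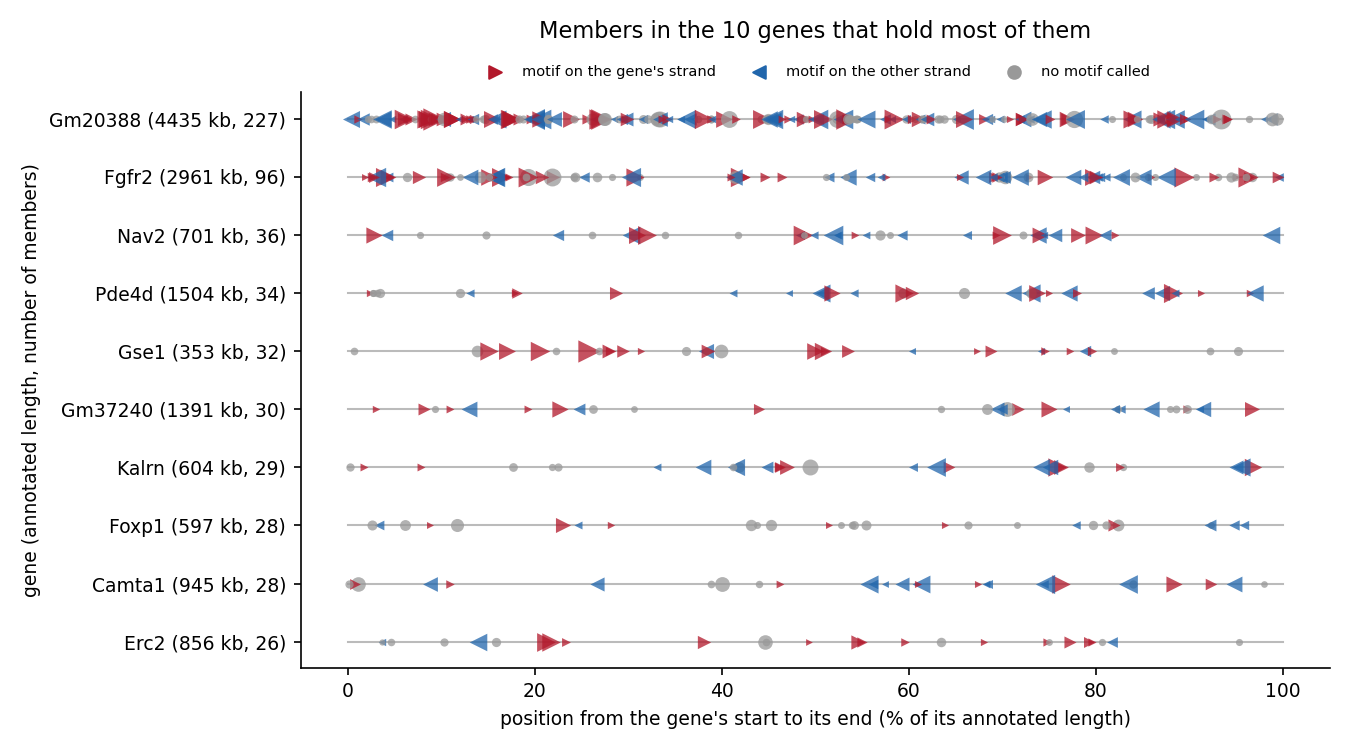
Positions of the members in the 10 genes with most of them, from the gene's start (0) to its end (100), in percent of the annotated length; each row is a gene with its length and member count, and symbols grow with signal. Red triangles are motifs on the gene's strand, blue ones motifs on the other strand, and grey circles members with no motif call. The 22 triangles of Gse1 are mostly red and the symbols of Foxp1 stay small.

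Gse1, a protein associated with histone-modifying co-repressor complexes, was the densest gene among those with at least 0.2 Mb of eligible sequence, with 32 members in 352.9 kb or 121 per Mb (interval 82.7 to 171). Its eligible bases were 55.1% GC, the highest of all 953 genes, and it lies inside the span of Gm20388. Skap1, a T-cell adaptor protein, followed at 87.8 per Mb, then Gm20388 itself at 83.6, Arid1b, a subunit of the BAF remodelling complex, at 82.7 and Prdm16, a zinc-finger regulator of brown fat, at 82.2. The intervals of these genes overlap, so their order is not resolved. At the other end, 44 genes held no member, among them the spanning models Pcdha1 to Pcdha7, each with 0.0752 to 0.0883 Mb eligible. The longest were Nkain3 (660.0 kb), Zfp804b (575.7 kb), Iqcm (535.8 kb), Skint5 (521.6 kb) and Cpq (511.4 kb), and Edil3, an integrin ligand of the extracellular matrix, had none in 501.8 kb. The conservative list placed 1 peak in Iqcm. For Nkain3 a count of 0 in 0.419 Mb allows up to 8.81 per Mb. GC content in these 6 genes ran from 35.8 to 39.1%.

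The strongest members were scattered over genes of unlike function. The highest lay in Pcbp3, which encodes a poly(C)-binding protein, with a signal of 674.5, in intron 5 of 18 and 126.0 kb from the gene's start, and ranked 16 in replicate 1 and 73 in replicate 2. The second, at 641.4, lay in Gse1 and Gm20388 and ranked 96 and 74. Next were Palld, an actin-associated scaffold, at 617.6, Ksr2, a scaffold of the MAP kinase cascade, at 585.9, Gabbr2, a subunit of the GABA-B receptor, at 585.9, Farp1, a guanine nucleotide exchange factor, at 585.3, and Col23a1, a transmembrane collagen, at 582.5. Dym, a Golgi protein, at 566.5, Ctif, a translation initiation factor, at 565.5, and Dis3l2, an exoribonuclease, at 564.5 completed the first 10. A motif was called in 9 of these 10, the exception being Dym. In Col23a1 the called motif lay more than 50 bases from the summit, outside the stretch printed for the others.

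The gene lists differed in how densely they were filled. They were written from general knowledge of the genes' functions, and their intervals cover counting error only. Of the 14 functional lists, 5 with many adhesion and neuronal surface proteins or fragile sites held fewest, against 22.6 per Mb over all 953 genes. Common fragile site genes held 10.2 members per Mb (interval 8.42 to 12.3, 12 genes) and neurotransmitter receptors 10.3 (8.13 to 13, 20 genes). Synaptic adhesion molecules held 12.0 (10.5 to 13.6, 34 genes), axon guidance genes 12.7 (10.2 to 15.7, 20 genes) and cadherins and catenins 13.3 (10.8 to 16.1, 14 genes). The intervals of these 5 lists overlap, so their order is not resolved. Lsamp, an adhesion molecule of limbic neurons, held the most of the adhesion molecules with 17 in 2197 kb, and Wwox, a fragile site oxidoreductase, held 19 in 913.1 kb. Among the longest list genes without a member were Epha5, an ephrin receptor of 362.6 kb, and Cdh8, a cadherin of 392.0 kb. Median GC in the 5 sparse lists was 38.5 to 40.0%, against 42.2% over all genes.

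Transcription factors and muscle or cytoskeletal genes had the highest values, with intervals that overlap each other and that of the list of cyclic nucleotide and lipid signalling genes. The 27 muscle and cytoskeletal genes held 32.6 members per Mb, each of them at least 1, and Nav2 led them. The 52 transcription factors and cofactors held 480 members, 28.9 per Mb, led by Foxp1. These 480 were weak: their median signal was 56.2, 39.4% exceeded the median of the list and 61.5% (Wilson interval 57 to 65.7) had a motif, the lowest of the 14 lists in each measure. Ion channels and their partners stood at the other end with a median signal of 111.8 and a motif in 82.2% (76.5 to 86.7) of 213 members, led by Kcnma1, the large-conductance calcium-activated potassium channel, with 15. Epithelial polarity, transport and trafficking genes, the list closest to the gut lining, held 23.0 per Mb in 32 genes, led by the junctional scaffold Magi1 with 22. Extracellular matrix genes held 18.2 per Mb.

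**Figure D4:**
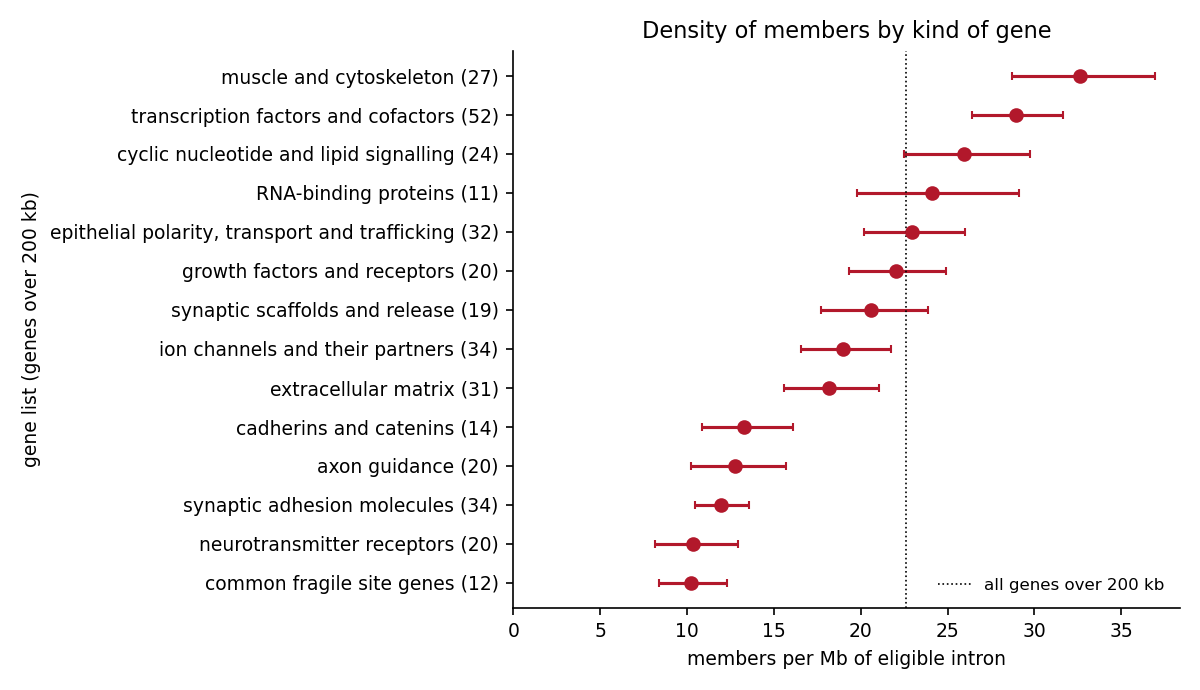
Members per Mb of eligible intron (horizontal axis, with 95% Poisson intervals) for 14 lists of genes over 200 kb, the number of such genes in brackets; the dotted line is the value over all 953 genes, 22.6 per Mb. Fragile site genes and neurotransmitter receptors lie lowest at 10.2 and 10.3 and muscle and cytoskeletal genes highest at 32.6. In the list of growth factors and receptors, 96 of 248 members lie in the spanning model of Fgfr2.

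Position within the gene made a modest difference. Split into 10 equal parts from start to end, the genes held 19.9 to 24.4 members per Mb in the first 9 and 29.6 (interval 27.6 to 31.8) in the last, where the median signal was also highest, at 105.2 against 69.2 to 91.7. Short introns of these genes were the richest: introns under 10 kb held 32.5 members per Mb with a median signal of 125.6 and a motif in 79.4%, and introns over 100 kb held 19.4 per Mb with a median signal of 69.4 and a motif in 69.5%. The first intron held 22.3 per Mb and all later introns 22.7 (ratio 0.984, exact interval 0.926 to 1.04). Gm20388 has a first intron of 4384 kb. Without the spanning models the ratio was 0.886 (interval 0.830 to 0.945), so that later introns were then denser by the test. For genes over 500 kb it passed the other way with these models (1.21, 1.10 to 1.33) and again toward later introns without them (0.885, 0.786 to 0.994).

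The motifs pointed in both directions along the genes. Of 4409 motif-bearing members in long genes of a single strand, 2146 had the motif on the gene's strand, 48.7% (Wilson interval 47.2 to 50.1), which did not pass the test against 50%. It passed, always below 50%, in lists from either replicate alone (48.1% and 48.5%), and it was 51.4% for genes over 500 kb. Single genes were uneven: in Gse1 18 of 22 motifs lay on the gene's strand, in Erc2 13 of 16, and in Skap1 and Cdh13, a cadherin, 3 of 15 each. These genes were singled out after their values were seen.

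Neighbouring members were spaced by a median of 24.0 kb (quartiles 8.54 and 57.6 kb), and how their motifs faced each other changed with that distance. Only 6174 of the 9347 peaks in these genes are members, because exonic, TSS-near and masked peaks were left out. Other CTCF peaks can therefore lie between neighbouring members. Pairs were formed from successive motif-bearing members of 1 gene, 3541 in all. Of these 54.9% (interval 53.2 to 56.5) were tandem, with both motifs on 1 strand, which is more than 50% by the test. Among the 1598 opposed pairs 807 were convergent, facing each other, which is 50.5% (48.1 to 52.9). That even balance hid opposite leanings. The convergent share of opposed pairs was 42.4% (35.8 to 49.2) under 5 kb and 38.5% (33.8 to 43.3) at 5 to 20 kb, then 47.9% (43.0 to 52.8) at 20 to 50 kb, 61.6% (57.3 to 65.8) at 50 to 200 kb and 71.6% (61.8 to 79.7) beyond 200 kb. Pairs that faced away from each other were thus more frequent when close and pairs that faced each other more frequent when far apart.

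The same was seen among neighbouring motif-bearing peaks that are not members, where the convergent share went from 44.6% under 5 kb to 65.5% beyond 200 kb. Members differed from these pairs at 5 to 20 kb, with a convergent share lower by 7.24 points (difference -7.24, Newcombe interval -12.0 to -2.27). At the other 4 distances the interval of the difference included 0, and it ran from -4.23 to 14.9 points beyond 200 kb, where 95 opposed pairs of members were available. For tandem pairs all 5 intervals included 0, with members 1.47 to 3.27 points higher.

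**Figure D5:**
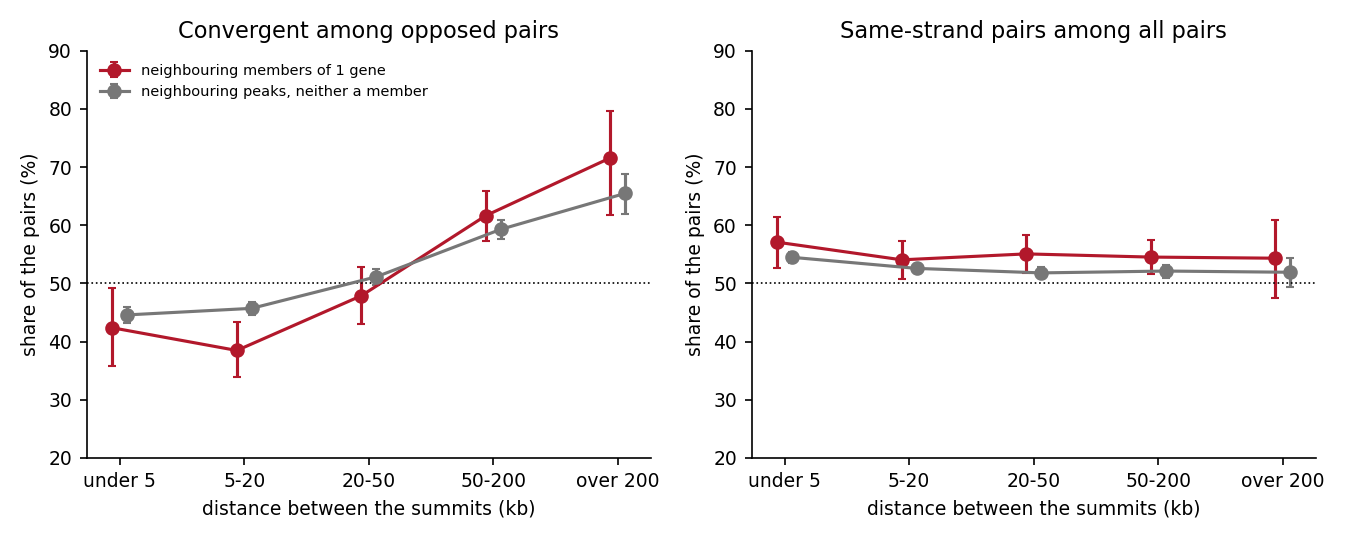
Convergent pairs among opposed pairs (left) and same-strand pairs among all pairs (right), in percent with 95% Wilson intervals, by distance between summits in kb, for neighbouring members of 1 gene (red) and neighbouring peaks that are not members (grey); the dotted line marks 50%. The left curves cross 50% between 20 and 200 kb, and the red one runs from 38.5% at 5 to 20 kb to 71.6% beyond 200 kb, while the right curves stay above 50% throughout.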

How the data were processed

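CTCF ChIP-seq peak lists of newborn mouse intestine were used as deposited, in mm10 coordinates per the labels. Per the deposited file descriptions, each replicate's list of 300000 peaks came from its own alignments, and the optimal list (73465 peaks) and conservative list (70556 peaks) came from the replicates' lists and their pool, thresholded on the irreproducible discovery rate. No source used here gives the caller, its settings or the read depth. The signal of a peak is the authors' enrichment value, and the deposited offset (other column) gives its summit. The pooled peak list was not used.

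Gene models were GENCODE M21, and sequence and soft-masking came from the mm10 reference (RefSeq). For each class of position the eligible bases that met the same criteria as the summits were counted, and densities are summits per Mb of them. A 19-base CTCF matrix was trained in 6 rounds on 5000 peaks, those of highest signal on chromosomes of even number, and scored on those of odd number, and the reverse, with a pseudocount of 1. A motif was called above the score that 5% of windows 1000 bases from the summits reach. Densities were compared by exact conditional intervals, and shares by Wilson and Newcombe intervals, all at 95%. A difference was called where the interval left out equality. Python 3.11.15, numpy 2.4.6 and scipy 1.17.1 were used, and the calculations were tested on simulated data.

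The 10 genes with most members, the 5 densest and 5 sparsest with at least 0.2 Mb eligible, the 5 longest without a member, the 10 strongest members, and in each of 14 gene lists the gene with most members and the longest with none were named, except for some items that are not reported here. The members and lists were chosen with earlier results of these data known. The classes of TSS distance, local GC and pair distance, and the setting without spanning gene models, were chosen after seeing the data. With 1 group there was no comparison of conditions, and replicates were compared by rank only.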

Additional observations from a re-analysis of the deposited data

How the results depend on the processing

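Of 125 recomputed values, 88 kept their direction and their side of the threshold or, for results without a threshold, stayed within the main interval. The density ratio to short-gene introns, the difference in the share above the median signal, the ratios to intergenic sequence at 1 to 10 kb and at 50 to 200 kb from a TSS and the convergent share at 50 kb or more did so under every alternative run for them. The overall ratio to intergenic sequence turned to 1.09 for genes over 100 kb, 1.03 more than 10 kb from a TSS and 1.06 with soft-masked bases kept. The difference in motif share passed the test with the conservative list (-2.33 points), peaks above the median signal (-3.09), genes over 100 kb (-2.36), more than 10 kb from a TSS (-3.65), masked bases kept (-3.51) and a threshold of 1% (-2.39). It turned to 0.562 for genes over 500 kb and 1.02 against genes of 50 to 200 kb, and it passed without either replicate, at -2.65 and -1.74 points. None of these differences is corrected for calls in flanking windows, which in the main setting were more frequent beside short-gene peaks. The share above the median signal differed by -1.90 points against genes of 50 to 200 kb.

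The share of motifs on the gene strand passed below 50% for genes over 100 kb (47.5%), more than 10 kb from a TSS (47.7%) and at a threshold of 1% (47.9%), was 51.4% for genes over 500 kb, and passed without either replicate, at 48.1 and 48.5%. The convergent share over all distances was 47.3% above the median signal, 49.2% more than 10 kb from a TSS, 48.5% at 1% and 43.0% for pairs under 50 kb. The tandem share no longer passed at 1% (52.2%). The first-to-later intron ratio was 0.865 above the median signal, 1.21 for genes over 500 kb, where it passed in the other direction, 0.885 for these without the spanning models, 0.894 more than 10 kb from a TSS, 1.01 with masked bases kept and 0.886 without the spanning models, and ran from 0.989 to 1.01 without 1 replicate. The share of genes with a member was 86.1% above the median signal, 90.2% for genes over 100 kb, 97.2% over 500 kb, 89.8% more than 10 kb from a TSS and 96.7% with masked bases kept. Above the median signal and more than 10 kb from a TSS only part of the members remain, so this share could not rise there. The rank correlation between replicates was 0.964 with summits matched within 50 bases. The causes of these changes were not tested.

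List densities moved beyond their intervals under 1 of 4 peak lists, that of peaks above the median signal, in all 14 lists. That setting drops the weaker peaks and keeps the same eligible bases, so lower densities were built into it. No paired analysis was possible because there is a single group. Depth is unknown, so the sensitivity of the lists to weak sites cannot be stated, and peaks of 1 gene share their source.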

Other observations

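The leading genes of the other lists were filled as follows. Rbms3, an RNA-binding protein, held 22 members with signals up to 167.1, and 12 of them had a motif. Cdh13, a cadherin anchored to the membrane by a lipid, held 20 with a median signal of 46.7. Grik4, a kainate receptor subunit, and Thsd4, a microfibril-associated matrix protein, held 18 each, and Slit3, a secreted guidance cue, held 14 with a median signal of 101.1. Their highest signals were 399.2 in Cdh13, 417.9 in Grik4, 459.7 in Thsd4 and 469.1 in Slit3, so that Rbms3 was the one of these 5 without a member above 300.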
